A study of Mus musculus with 7 samples.

Results

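The 10 genes described here, Lgr5, Ascl2, Olfm4, Smoc2, Mex3a, Fstl1, Clca4a, Fam84a, Cdk6 and Prom1, are genes by which stem cells at the base of the intestinal crypt are recognised. They were taken by name from the 52550 genes counted, each matched exactly 1 gene identifier, and all 10 passed the filter on low counts. They were chosen by name with the levels in these libraries, and so their differences between the groups, already known. Those differences are a description, and the counts of calls given for them are not read as a result. RNA came from cells sorted as Paneth cells, the granule-filled secretory cells that lie between the stem cells, from 7 libraries of Lgr5-EGFP-IRES-CreERT2 mice on the C57BL/6J strain. The 4 DSS libraries came from mice given 3% dextran sulfate sodium, which injures the gut epithelium, in the drinking water for 7 days and killed 3 days after its removal. The 3 water libraries came from mice that drank water. DSS 1 was 12 weeks old and DSS 2 to 4 were 10 weeks old, while water 1 and water 2 were 12 weeks old and water 3 was 10 weeks old. All 7 libraries share the reporter allele, in which a cassette for a fluorescent protein and an inducible Cre recombinase sits in the Lgr5 gene itself. The labels do not give the number of alleles that carry it, and the cassette was not counted as a gene. The question addressed by the study is whether Paneth cells take up stem-like features during inflammation, and the one asked of these 10 genes is whether they move together.

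Stem cells of the crypt base are kept by Wnt signals, some of which Paneth cells supply. Lgr5 is a receptor for R-spondins, which raise the response to Wnt, and Ascl2 is a transcription factor that works with Wnt signalling to hold the stem cell state. Most of the other genes became known as part of the RNA signature of Lgr5-positive cells and have no common biochemical role. The sort was by CD24 and side scatter, with cells positive for TER119, CD31 or CD45 left out and CD117 stained, per the labels' protocols. Stem cells of the crypt base also carry CD24, at a lower level than Paneth cells. In such bulk RNA, fewer cells of a type and less RNA per cell cannot be told apart.

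All 10 Paneth markers listed for the check, Lyz1 and 4 alpha-defensins among them, were detected in each library. Their summed level was between 113575 and 196986 CPM (counts scaled to a common library size, here by the trimmed mean of M-values, TMM) in DSS libraries and between 229634 and 246090 CPM in water libraries. Total counts ran from 23179147 to 32451653 in DSS libraries and from 23175708 to 25894328 in water libraries, and 3 counts were worth at most 0.129 CPM of the total. Enteroendocrine markers, of the hormone-secreting cells, were unlike between libraries, at 825 to 1625 CPM in DSS and at 63.8 CPM in water 1 beside 1803 and 3182 CPM in water 2 and water 3. Tuft cell markers summed to 1021 and 1022 CPM in DSS 2 and DSS 3 and to between 521 and 604 CPM in the other libraries. Markers of immune cells other than Lyz2, a lysozyme gene that held nearly all of that list's RNA, summed to between 10.7 and 20.03 CPM in DSS and between 10.2 and 16.0 CPM in water. In each of these marker lists edgeR called 0 genes, as it did over all genes. DESeq2 called 3 Paneth markers and 1 gene of the immune list, Lyz2, lower, beside 2.24% of all genes. It called 1 tuft cell marker higher, beside 2.62% of all genes, and 0 enteroendocrine markers. The other immune markers tested, Cd68, Itgam and Ptprc, had estimates above 0 and were not called. RNA isolation days each held libraries of 1 group, so day and group cannot be told apart.

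Sequences bear on 2 matters here, which reads belong to Clca4a and what lies at the start sites of genes that stood apart between the groups. Clca4a has a neighbour on chromosome 3, Clca4b, whose coding sequence matches it at 2665 of 2775 bases, or 96%. The first 120 coding bases of each are shown, from GENCODE release 21 on GRCm38, the build called mm10, with capitals at the 4 positions where the genes differ. Clca4a lies here at chr3:144974895-144975014 and Clca4b at chr3:144932380-144932499, both on the minus strand.
Clca4a: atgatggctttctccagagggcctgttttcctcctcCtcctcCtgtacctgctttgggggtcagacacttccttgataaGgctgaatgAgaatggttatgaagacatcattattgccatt
Clca4b: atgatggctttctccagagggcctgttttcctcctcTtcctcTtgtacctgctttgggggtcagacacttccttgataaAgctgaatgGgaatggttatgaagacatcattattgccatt
Between the differences, reads from either gene have the same letters over long stretches. Of all 50-base words in Clca4a transcripts, 41% also occurred in transcripts of another gene, most often Clca4c-ps, a pseudogene copy beside them, against between 0% and 5.35% for the other 9 genes. Counts of Clca4a are therefore uncertain, and its values are read below beside those of Clca4b and Clca4c-ps.

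Promoter windows of 300 bases, from 250 before to 50 after the start of a gene, were found for 7 of the 10 genes in the RefSeq table (build GRCm38.p6), and Lgr5, Smoc2 and Clca4a were not matched. The windows of Ascl2 (chr7:142969215-142969514, minus strand), which lay higher in DSS libraries, and of Fam84a (chr12:14151989-14152288, minus strand, listed by RefSeq as Lratd1), which lay lower, are shown as the genes that stood apart in opposite directions. The Prom1 window at its second start site, further into the gene (chr5:44094719-44095018, minus strand), is shown because it holds the one motif found, in capitals.
Ascl2: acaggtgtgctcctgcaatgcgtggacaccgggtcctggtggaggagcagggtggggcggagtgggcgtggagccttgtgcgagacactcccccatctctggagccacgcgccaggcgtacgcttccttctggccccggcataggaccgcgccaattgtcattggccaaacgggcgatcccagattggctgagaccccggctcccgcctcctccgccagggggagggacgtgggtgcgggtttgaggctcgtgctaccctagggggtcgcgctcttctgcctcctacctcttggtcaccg
Fam84a: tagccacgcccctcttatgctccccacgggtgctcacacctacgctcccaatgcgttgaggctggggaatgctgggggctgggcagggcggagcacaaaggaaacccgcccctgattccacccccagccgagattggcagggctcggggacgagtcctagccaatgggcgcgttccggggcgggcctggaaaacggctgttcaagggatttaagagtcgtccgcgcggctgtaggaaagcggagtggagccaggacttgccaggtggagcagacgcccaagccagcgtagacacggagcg
Prom1: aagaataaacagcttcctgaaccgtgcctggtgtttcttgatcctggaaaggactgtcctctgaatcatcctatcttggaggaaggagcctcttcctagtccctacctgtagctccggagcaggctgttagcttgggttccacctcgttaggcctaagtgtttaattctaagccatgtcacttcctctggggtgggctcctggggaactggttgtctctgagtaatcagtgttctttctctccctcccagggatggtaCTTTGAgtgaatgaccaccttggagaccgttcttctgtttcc
The motifs searched on both strands were CTTTGA, the core that TCF and LEF factors of the Wnt pathway bind, and CAGCTG, an E-box of the kind achaete-scute factors such as Ascl2 bind. No 2 matches overlapped. CTTTGA was found in 1 of the 7 genes, in that Prom1 window 8 bases after the start site, and in 16% of all 32851 windows of the table. CAGCTG was found in 0 of the 7 genes and in 16.3% of all windows. A missing match says only that these letters are not in this window.

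Lgr5, the R-spondin receptor (ENSMUSG00000020140.15, chr10:115450311-115587780, minus strand), was at 118, 76.7, 56.7 and 62.4 CPM in DSS 1 to 4, against 168, 112 and 102 CPM in water 1 to 3. DSS 2 to 4 lay below every water library, while DSS 1 lay above water 2 and water 3, so the groups overlapped. The means were 78.5 ± 27.7 CPM in DSS (SD, n = 4) and 127 ± 35.8 CPM in water (SD, n = 3), and the fitted log2 difference of DSS over water was -0.70 ± 0.26 (SE). The difference was -0.45 without water 1, the highest library, and -0.96 without DSS 1. With age as a covariate it was -0.46. The spread was wide, with an SD of log2 CPM within groups of 0.44, larger than that of 88.2% of genes tested. Each library held between 1651 and 3773 reads of the gene.

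The summed Paneth markers followed the same order as Lgr5 among the DSS libraries. They were at 196986, 159838, 113575 and 118834 CPM in DSS 1 to 4, and at 229634, 246090 and 233144 CPM in water 1 to 3. Water 1, with the highest Lgr5, had the lowest enteroendocrine markers and the highest sum of 12 proliferating cell markers, at 1138 CPM beside 902 and 931 CPM in water 2 and water 3. The part of these cell types in the Lgr5 values was not tested.

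**Figure D1:**
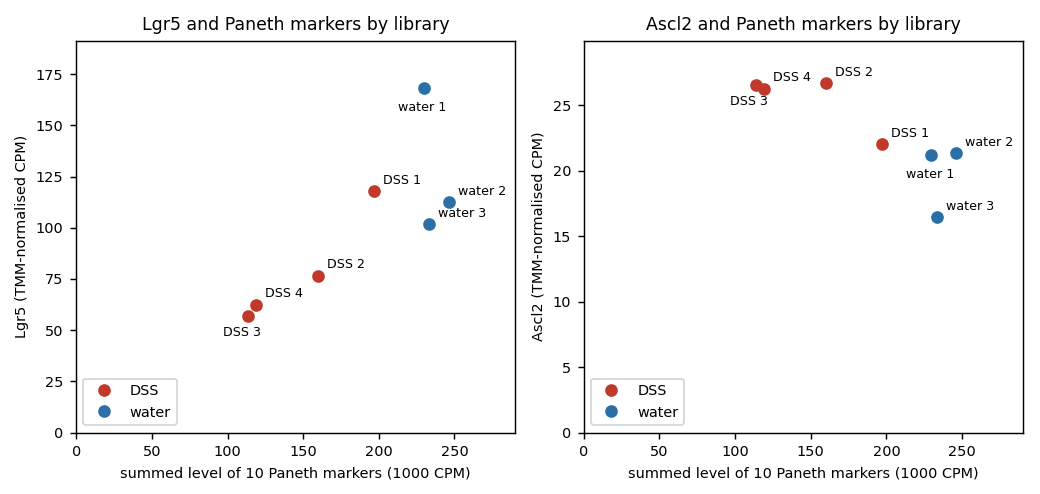
Levels of Lgr5 (left) and Ascl2 (right) in TMM-normalised CPM against the summed level of 10 Paneth markers in CPM, 1 point per library, DSS in red and water in blue. Lgr5 was lowest in DSS 3 and DSS 4, where the markers were lowest, while Ascl2 stood between 26.3 and 26.7 CPM in DSS 2 to 4 and at 22.0 CPM or below in the other libraries.

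Prom1, a pentaspan membrane protein known as CD133 (ENSMUSG00000029086.15, chr5:43993620-44102032, minus strand), was the steadiest of the 10. It was at 223, 227, 225 and 210 CPM in DSS 1 to 4, against 234, 243 and 230 CPM in water 1 to 3. All DSS libraries lay below all water libraries, yet the means, 221 ± 8.04 CPM in DSS and 236 ± 6.26 CPM in water (SD, n = 4 and 3), gave a log2 difference of only -0.09 ± 0.06 (SE). Its direction turned to 0.14 when libraries were scaled by their totals, where the median of all genes was 0.23. Its spread within groups was smaller than that of nearly all genes tested, an SD of log2 CPM of 0.048 at percentile 2.65.

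Ascl2, the transcription factor (ENSMUSG00000009248.6, chr7:142966829-142969264, minus strand), was at 22.0, 26.7, 26.6 and 26.3 CPM in DSS 1 to 4, against 21.2, 21.3 and 16.4 CPM in water 1 to 3. Every DSS library lay above every water library, but DSS 1 was within 1 CPM of water 2. The means were 25.4 ± 2.26 CPM in DSS and 19.7 ± 2.78 CPM in water (SD, n = 4 and 3), with a log2 difference of 0.37 ± 0.11 (SE), which was 0.26 without water 3.

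Mex3a, an RNA-binding protein known from slowly cycling Lgr5-positive cells (ENSMUSG00000074480.4, chr3:88532395-88541396, plus strand), was at 12.5, 14.5, 14.5 and 12.1 CPM in DSS 1 to 4, against 11.0, 9.90 and 10.0 CPM in water 1 to 3. The groups did not overlap. The means were 13.4 ± 1.28 CPM in DSS and 10.3 ± 0.614 CPM in water (SD, n = 4 and 3), and the log2 difference was 0.38 ± 0.10 (SE). DSS 2 and DSS 3, with the highest Mex3a, were also the libraries with the most tuft cell marker RNA, whose part in the value was not tested.

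Cdk6, a kinase that with D-type cyclins drives cells out of G1 phase (ENSMUSG00000040274.11, chr5:3341485-3531008, plus strand), was at 148, 132, 129 and 161 CPM in DSS 1 to 4, against 141, 113 and 115 CPM in water 1 to 3. Water 1 lay above DSS 2 and DSS 3, so the groups overlapped. The log2 difference was 0.21 ± 0.11 (SE), from means of 142 ± 15.2 CPM in DSS and 123 ± 15.7 CPM in water (SD, n = 4 and 3), and it was 0.32 without water 1.

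The abundant secreted products showed no separation of the groups. Olfm4, a secreted glycoprotein that marks mouse and human stem cells strongly (ENSMUSG00000022026.6, chr14:80000302-80021930, plus strand), was at 2891, 2336, 2244 and 2615 CPM in DSS 1 to 4, against 2911, 2408 and 2567 CPM in water 1 to 3. The log2 difference was -0.06 ± 0.13 (SE), and its direction turned with library totals (0.17), with age as a covariate (0.0045) and without water 1 (0.019). Smoc2, a matricellular protein (ENSMUSG00000023886.9, chr17:14279506-14404790, plus strand), was at 236, 234, 197 and 205 CPM in DSS 1 to 4, against 225, 199 and 192 CPM in water 1 to 3. Its log2 difference was 0.09 ± 0.09 (SE), and the groups overlapped over most of their range. It was 0.16 without water 1 and 0.04 without water 3.

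Of the remaining 3 genes, all low or moderate in count, each had an estimate below 0. Fam84a, a cytoplasmic protein of little known function (ENSMUSG00000020607.7, chr12:14146830-14152054, minus strand), was at 31.5, 27.3, 26.7 and 26.5 CPM in DSS 1 to 4, against 41.3, 34.8 and 39.7 CPM in water 1 to 3. No DSS library reached the lowest water library. The means were 28.0 ± 2.36 CPM in DSS and 38.6 ± 3.37 CPM in water (SD, n = 4 and 3), a log2 difference of -0.46 ± 0.09 (SE), which was -0.23 with library totals only.

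Fstl1, a secreted follistatin-like glycoprotein made in many tissues by mesenchymal cells (ENSMUSG00000022816.11, chr16:37776873-37836514, plus strand), rested on 74 to 172 reads a library. It was at 5.73, 2.18, 2.71 and 3.13 CPM in DSS 1 to 4, against 7.45, 5.62 and 7.21 CPM in water 1 to 3. DSS 1 lay just above water 2, and DSS 2 to 4 lay well below all water libraries. The log2 difference was -0.99 ± 0.29 (SE), and -1.34 without DSS 1. Of 14 mesenchymal markers 3 passed the low-count filter, and the sum of all 14 was 8.38 to 9.62 CPM in DSS, inside the range of 3.08 to 19.0 CPM in water. The collagen genes Col1a1, Col1a2 and Col3a1 together reached at most 0.147 CPM in DSS and 0 CPM in water.

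Clca4a, of the family of calcium-activated chloride channel regulators (ENSMUSG00000068547.6, chr3:144952480-144975045, minus strand), was at 11.4, 6.21, 4.95 and 7.80 CPM in DSS 1 to 4, against 16.2, 10.9 and 17.1 CPM in water 1 to 3. DSS 1 lay above water 2, and the other 3 DSS libraries lay below all water libraries. The log2 difference was -0.97 ± 0.27 (SE). Clca4b, its near copy, held more reads, with 88.0, 63.0, 31.6 and 62.3 CPM in DSS 1 to 4 and 126, 78.7 and 89.0 CPM in water 1 to 3. Its log2 difference was -0.68 ± 0.29 (SE; edgeR adjusted p = 0.307), and that of Clca4c-ps was -0.55 ± 0.26 (edgeR adjusted p = 0.354). DSS 3 was lowest in DSS for Clca4a, Clca4b and Clca4c-ps alike, and water 2 lowest in water for the same genes. The part of shared reads in these values was not tested.

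**Figure D2:**
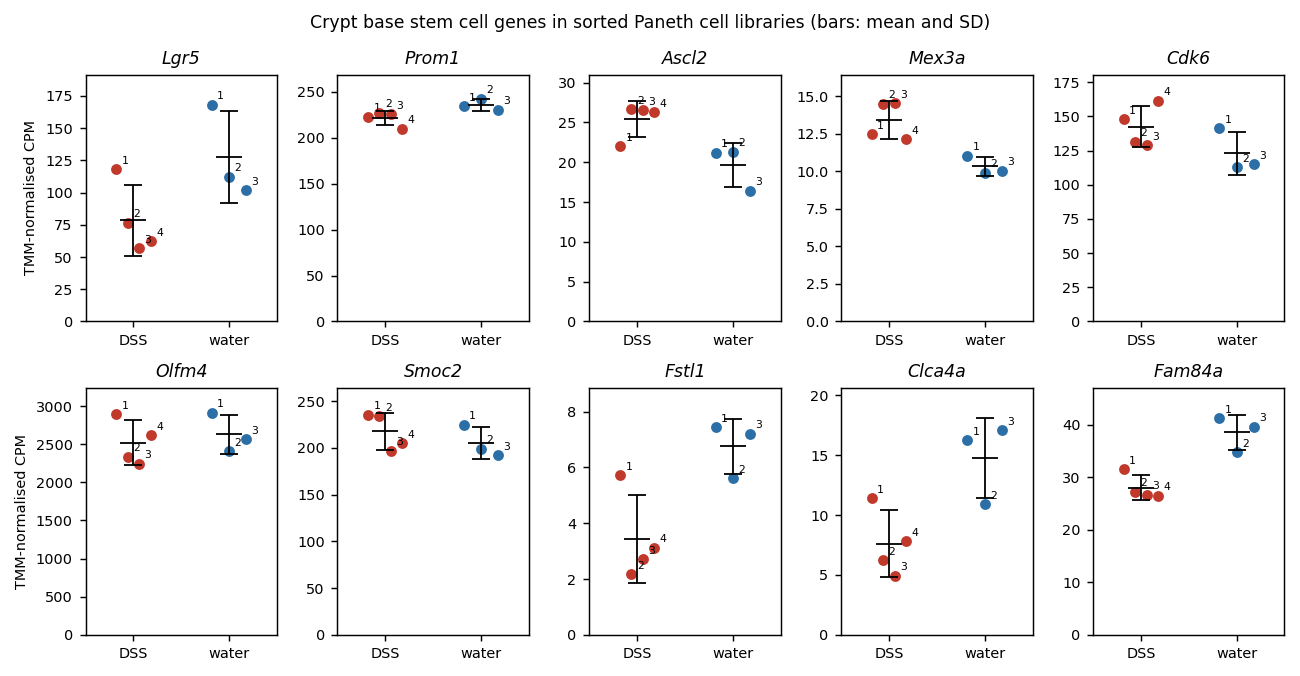
TMM-normalised CPM of each of the 10 genes, 1 point per library with its replicate number, DSS in red and water in blue, with the mean and SD of each group and axes from 0. The groups do not overlap for Ascl2 and Mex3a, higher in DSS, or for Fam84a and Prom1, lower in DSS.

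Between the groups, the 10 genes had estimates in both directions. Of the 10, 4 had a log2 difference above 0 and 6 below, with a median of -0.08 beside -0.0015 over all genes tested. For 2 genes each DSS library was above each water library, where 7.40% of all genes had that pattern, and for 2 genes each was below, where 7.51% did. In edgeR's quasi-likelihood test over 17449 genes 0 of the 10 passed in either direction at an adjusted p under 0.05, where 0% of all genes passed. In DESeq2, 0 of the 10 passed as higher, beside 2.62% of genes, and 3 passed as lower, Fam84a, Fstl1 and Clca4a, beside 2.24%. Since the genes were named with this contrast known, nothing is read from these shares. Without DSS 1, all remaining DSS libraries lay below water for 5 genes, Lgr5, Fstl1 and Clca4a joining Fam84a and Prom1, where 11.9% of all genes did. Without water 2 it was 4 genes, where 12.1% of all genes did. Without water 1 Cdk6 joined Ascl2 and Mex3a above, where 13.1% of all genes did.

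**Figure D3:**
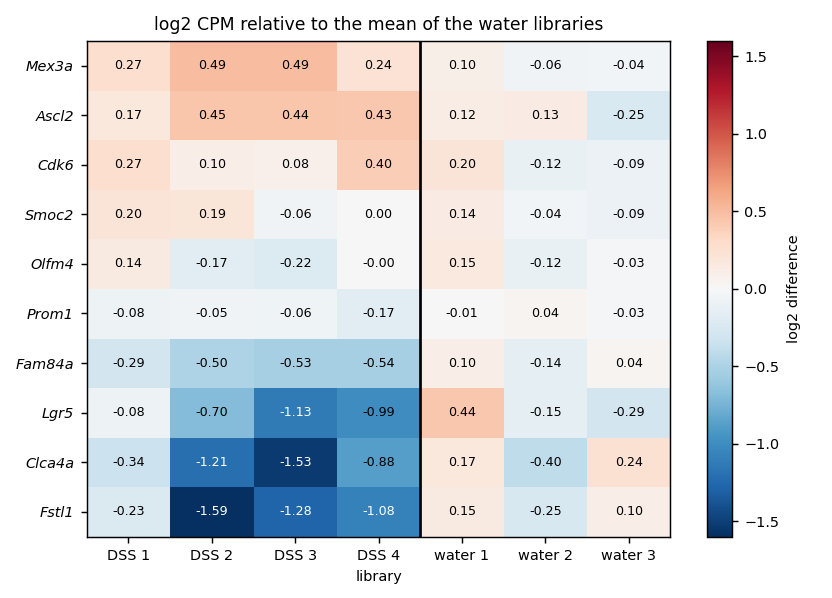
Log2 CPM of each gene in each library relative to the mean of the 3 water libraries, DSS libraries left of the line and water libraries right of it, red above and blue below that mean. DSS 2 to 4 are blue for Fstl1, Clca4a, Lgr5 and Fam84a and red for Mex3a and Ascl2, while DSS 1 is paler than they are for each of these genes but Mex3a, where DSS 4 is the palest.

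DSS 1 was the DSS library nearest to the water mean for Lgr5, Fstl1, Clca4a, Fam84a and Ascl2. For the other genes another library was nearest, DSS 2 for Prom1, DSS 3 for Cdk6 and DSS 4 for Mex3a, Olfm4 and Smoc2. For Smoc2 DSS 1 was the farthest of the DSS libraries. Relative to that mean on the log2 scale, Lgr5 was at -0.08 in DSS 1 and between -1.13 and -0.70 in DSS 2 to 4. Fstl1 was at -0.23 in DSS 1 and between -1.59 and -1.08 in the others, and Clca4a at -0.34 and between -1.53 and -0.88. Ascl2 was at 0.17 in DSS 1 and between 0.43 and 0.45 in the others. DSS 1 was also the one DSS library aged 12 weeks, and the DSS library with the lowest total counts. Its RNA was isolated on a day of its own, as was that of DSS 4. These traits of DSS 1 and its nearness to water for Lgr5, Fstl1, Clca4a, Fam84a and Ascl2 cannot be told apart.

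Levels of different genes can be compared only per length, here as TPM (counts divided by exonic length and scaled to the same sum in each library), and between genes of the same libraries. Olfm4 exceeded all the others in every library, with 2036 ± 206 TPM in DSS (SD, n = 4) and 1586 ± 195 TPM in water (SD, n = 3). Smoc2 came next at 102 ± 6.47 TPM in DSS and 71.7 ± 7.35 TPM in water, then Prom1 at 41.1 ± 5.14 TPM in DSS and 32.4 ± 0.458 TPM in water. TPM lacks the TMM scaling, so a gene's TPM is not compared here between DSS and water. In CPM the means of Olfm4 and Prom1 were lower in DSS, at 2521 and 221 against 2629 and 236 in water. That of Smoc2 was higher, at 218 in DSS against 205 in water. After Olfm4, Smoc2 and Prom1 the order by TPM differed between the groups. In DSS it ran Ascl2, Cdk6, Lgr5, Fam84a, Clca4a, Mex3a and Fstl1, and in water Lgr5, Ascl2, Fam84a, Cdk6, Clca4a, Mex3a and Fstl1. In DSS the libraries of Ascl2 and Cdk6, of Cdk6 and Lgr5, of Lgr5 and Fam84a, and of Clca4a and Mex3a overlapped. In water those of Lgr5 and Ascl2 overlapped, and those of Cdk6 overlapped with Fam84a, Ascl2 and Lgr5. The exonic length joins the exons of all annotated transcripts, so genes with long minor transcripts are understated.

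Ratios between genes within a library do not depend on how libraries are scaled. Olfm4 exceeded Lgr5 per length by 153, 191, 248 and 262 times in DSS 1 to 4, against 108, 134 and 158 times in water 1 to 3. Of the DSS libraries, DSS 1 alone lay within the water range. Smoc2 exceeded Lgr5 by 7.23, 11.1, 12.6 and 11.9 times in DSS 1 to 4, against 4.85, 6.43 and 6.83 times in water 1 to 3, with no overlap. The ratio of Ascl2 to Lgr5 was 2.25 ± 0.780 in DSS (SD, n = 4) and 1.01 ± 0.203 in water (SD, n = 3), and DSS 1, at 1.18, lay just under water 2, at 1.20. These ratios were chosen after the values were seen.

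Deviations from the group means do not hold the difference between the groups, though they come from the same libraries, whose values were known. For each of the 45 pairs, the deviations of log2 CPM from the group mean were correlated over the 7 libraries, with exact permutation within groups, two-sided, over all arrangements, and adjusted over the 45 pairs. The smallest p these arrangements allow is 0.00694, so a single pair at that floor cannot pass the adjustment, and a lack of passing pairs says little. Pearson's r was above 0 for 29 pairs and below 0 for 16, with a median of 0.31. At an unadjusted p under 0.05 there were 5 pairs, and 0 passed after adjustment, where the lowest adjusted p was 0.312. Pairs of other genes were not examined, so whether these counts differ from those of other genes is not known.

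Lgr5 and Smoc2 had the highest value, with r = 0.90 (exact permutation p = 0.00694, adjusted p = 0.312, n = 7) and a Spearman rho of 0.96 (exact p = 0.0139, adjusted p = 0.508). Without DSS 1 and water 1, the libraries farthest from the median of Lgr5, r was 0.98. In this and later values without 2 libraries, deviations were still taken from the means of the full groups. Both genes were highest in water 1 among water libraries and in DSS 1 among DSS libraries. Olfm4 and Clca4a had r = 0.90 (exact permutation p = 0.0278, adjusted p = 0.312, n = 7) and rho = 0.89 (exact p = 0.0417, adjusted p = 0.508), and r was 0.86 without DSS 1 and water 1. Fstl1 and Clca4a had r = 0.87 (exact permutation p = 0.0417, adjusted p = 0.312, n = 7) and rho = 0.82 (exact p = 0.0556, adjusted p = 0.508), with 0.94 without DSS 1 and DSS 2.

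Lgr5 and Olfm4, the marker genes most often used, had r = 0.80 (exact permutation p = 0.0625, adjusted p = 0.312, n = 7) and rho = 0.71 (exact p = 0.181, adjusted p = 0.508). The value of r was -0.07 without DSS 1 and water 1. Deviations there were from full-group means, so that value cannot show whether the relation rests on those 2 libraries. Without DSS 1 alone, and with the group means taken anew, r was 0.60. Lgr5 with Ascl2 had r = -0.18 (exact permutation p = 0.792, adjusted p = 0.891, n = 7) and rho = 0.21 (exact p = 0.722, adjusted p = 0.793), and r was 0.30 without those 2 libraries. The lowest value was that of Ascl2 with Clca4a, r = -0.70 (exact permutation p = 0.0972, adjusted p = 0.365, n = 7) and rho = -0.61 (exact p = 0.153, adjusted p = 0.508). It was -0.03 without DSS 1 and water 3. As the deviations were from full-group means, a difference between the groups can return there. That value therefore cannot show whether the relation rests on those libraries. Without DSS 1 alone, and with the group means taken anew, r was -0.47.

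**Figure D4:**
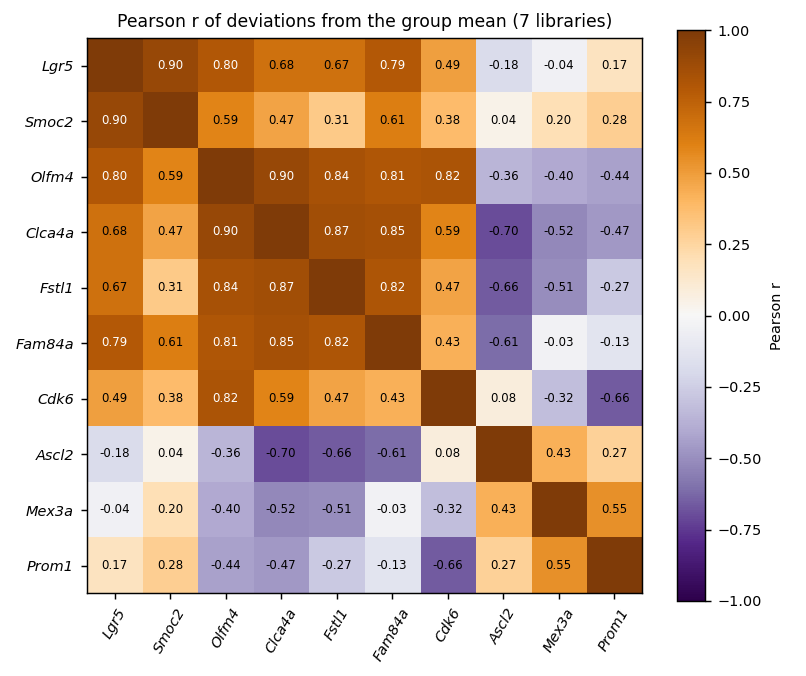
Pearson's r between each pair of the 10 genes over 7 libraries after the mean of each group is taken from log2 CPM, with orange above 0 and purple below 0. Lgr5, Smoc2, Olfm4, Clca4a, Fstl1, Fam84a and Cdk6 are positive with each other in all pairs, with a highest r of 0.90 for Lgr5 with Smoc2, while most pairs with Ascl2, Mex3a and Prom1 are near or below 0.

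Likeness was ranked over 9128 other genes whose log2 CPM averaged 3 or more. Those that followed Lgr5 most closely over the 7 libraries were Slc10a7 (Pearson's r = 0.99), Slc39a7, a zinc transporter of the secretory pathway (0.98), Cpd, a carboxypeptidase (0.97), Sars2, a mitochondrial seryl-tRNA synthetase (0.97), and Ptprt, a receptor phosphatase (0.97). Those nearest to Ascl2 were Zyx, of focal adhesions (0.99), Sufu, an inhibitor of Hedgehog signalling (0.98), Eif3k, a translation initiation factor subunit (0.98), the ribosomal protein gene Rpl8 (0.97) and Wdr89 (0.97). The genes described here were not among those ranked, so none of them could appear. Neither group of 5 held a gene of the other stem cell lists given below. With 5 places among 9128 genes, that absence is likely for any short list, and nothing is read from it. The points share depth and the group contrast, and the values are a description. Ptprt was lower in DSS, at 18.1 ± 4.98 CPM, than in water, at 28.2 ± 3.83 CPM (SD, n = 4 and 3), and Zyx higher, at 23.7 ± 3.12 CPM in DSS and 17.8 ± 2.59 CPM in water.

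A list of 31 other stem cell signature genes was also mixed. All 31 were tested, and edgeR called 0 higher and 0 lower over all genes. DESeq2 called 4 higher and 0 lower, where it called 2.62% and 2.24% of all genes. The DSS libraries all lay above the water libraries for 4 genes and below for 1, where 7.40% and 7.51% of all genes did so. At an unadjusted p under 0.05 edgeR had 4 higher and 1 lower, beside 8.36% and 7.35% of all genes. The median log2 difference was 0.03, and 19 estimates were above 0 and 12 below.

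The 4 genes in question are Wnt-responsive genes of the crypt base and a channel. Sp5, a transcription factor and direct Wnt target, was at 12.5, 10.4, 12.6 and 11.3 CPM in DSS 1 to 4, against 9.24, 8.89 and 8.14 CPM in water 1 to 3 (log2 difference 0.42 ± 0.11, edgeR adjusted p = 0.154). Ephb2, a receptor that positions cells along the crypt, was at 117 ± 7.18 CPM in DSS and 95.1 ± 8.26 CPM in water (SD, n = 4 and 3; edgeR adjusted p = 0.157). Axin2, a feedback inhibitor and target of Wnt, was at 201 ± 8.01 CPM in DSS and 166 ± 17.9 CPM in water (edgeR adjusted p = 0.187). Kcnq1, a potassium channel, was at 161 ± 25.7 CPM in DSS and 115 ± 13.4 CPM in water (edgeR adjusted p = 0.164). In DESeq2 the adjusted p-values of Sp5, Ephb2, Axin2 and Kcnq1 were 0.0415, 0.0219, 0.0403 and 0.0108.

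Ptpro, a receptor phosphatase, was the gene of that list with the lowest estimate. It was at 22.0, 15.7, 6.80 and 10.5 CPM in DSS 1 to 4, against 31.5, 25.0 and 23.9 CPM in water 1 to 3, with a log2 difference of -0.97 ± 0.32 (SE; edgeR adjusted p = 0.217). Its DSS libraries stood in the order of Lgr5, highest in DSS 1 and lowest in DSS 3. Znrf3, a ligase that removes Wnt receptors, was at 0.19 ± 0.09, Sox9, a transcription factor of crypt base cells, at 0.22 ± 0.10 and Tnfrsf19 at 0.24 ± 0.12 on the log2 scale (SE), and none passed in edgeR (adjusted p = 0.345, 0.351 and 0.381).

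**Figure D5:**
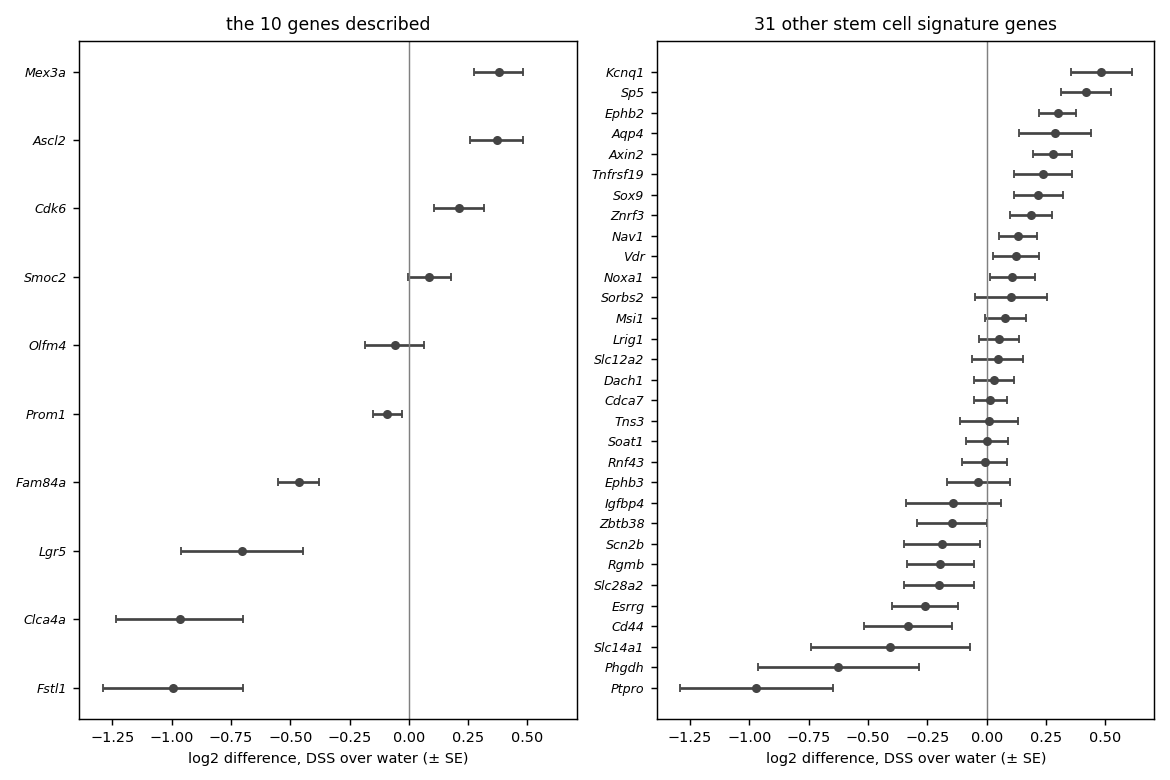
Log2 difference of DSS over water with its standard error from the edgeR fit for the 10 genes (left) and the 31 other stem cell signature genes (right), sorted by value. Both panels spread to either side of 0, from -0.99 for Fstl1 to 0.38 for Mex3a and from -0.97 for Ptpro to 0.48 for Kcnq1.

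Of 8 listed partners of Lgr5 in the R-spondin pathway, 3 were tested, and 0 passed in either direction in edgeR or in DESeq2. Znrf3 had the largest difference of the 3, the 0.19 ± 0.09 given above. Lgr4, the related receptor, was at 334 ± 52.9 CPM in DSS and 348 ± 34.4 CPM in water (SD, n = 4 and 3), a log2 difference of -0.06 ± 0.13 (edgeR adjusted p = 0.860), and Rnf43, a ligase like Znrf3, was at -0.01 ± 0.10 (edgeR adjusted p = 0.979). Lgr6 and the R-spondins Rspo1 to Rspo4 had between 3 and 35 reads over all 7 libraries and were not tested.

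Around Cdk6, 16 of 17 genes of the D-type cyclin and retinoblastoma pathway were tested, and 0 passed in edgeR or DESeq2. Ccnd1, the cyclin D1 gene, was at 0.23 ± 0.09 on the log2 scale (edgeR adjusted p = 0.282), E2f2, a transcription factor released by that pathway, at 0.29 ± 0.13 (0.337), and Cdk4, the twin kinase of Cdk6, at 0.11 ± 0.06 (0.404). Cdkn1b, which encodes the inhibitor p27, was at 98.5 ± 3.92 CPM in DSS and 109 ± 2.07 CPM in water (SD, n = 4 and 3; edgeR adjusted p = 0.263), with each DSS library below each water library. Of 12 proliferating cell markers 0 passed in edgeR or DESeq2, and 9 estimates were below 0, with Bub1 at -0.44 ± 0.13 (edgeR adjusted p = 0.193) and Top2a at -0.35 ± 0.13 (0.239). Ccna2 and Ccnb2 were at -0.23 ± 0.11 and -0.27 ± 0.14 (edgeR adjusted p = 0.345 and 0.380).

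Genes tied to injury-resistant or reserve stem cells were tested for 7 of 7 listed, and edgeR called 0 of them. Krt19, a keratin of crypt cells, was at 350, 426, 436 and 340 CPM in DSS 1 to 4, against 284, 264 and 283 CPM in water 1 to 3, with no overlap and a log2 difference of 0.49 ± 0.11 (SE; edgeR adjusted p = 0.138), and it was the 1 gene of that list which DESeq2 called higher (adjusted p = 0.000795). Clu, which marks revival stem cells, was at -0.68 ± 0.31 (edgeR adjusted p = 0.329), Prox1 at 0.15 ± 0.10 (0.488) and Tert, the telomerase gene, at 0.15 ± 0.14 (0.644).

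Relatives of the 10 genes were measured as well, and 17 of 25 in the files were tested, with 0 called in edgeR. DESeq2 called 1 higher, Clca1, and 1 lower, Fam84b. Clca1, a goblet cell product of the Clca4a family, was at 193, 755, 210 and 585 CPM in DSS 1 to 4, against 74.4, 105 and 114 CPM in water 1 to 3, a log2 difference of 2.16 ± 0.49 (SE; edgeR adjusted p = 0.138) opposite to that of Clca4a. Fam84b, the paralogue of Fam84a, was at 67.2 ± 6.45 CPM in DSS and 85.5 ± 10.7 CPM in water (SD, n = 4 and 3), a log2 difference of -0.35 ± 0.10 (edgeR adjusted p = 0.181). Mex3d, of the Mex3a family, was at 13.3 ± 1.24 CPM in DSS and 10.2 ± 1.51 CPM in water, a log2 difference of 0.38 ± 0.12 (edgeR adjusted p = 0.206), and Prom2 at -0.72 ± 0.22 (0.199).

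Exons of other annotated genes overlap those of 4 of the 10, Mir1905 in Mex3a, Gm16233 in Clca4a, Gm17590 in Cdk6 and Gm16401 in Prom1, all on the opposite strand. They cover between 1.42% and 11.1% of the gene's exonic length and hold between 0 and 355 reads over the 7 libraries, against 1869 to 42039 for the 4 genes. Reads were counted with no strand option per the file headers, so the strands cannot be told apart there.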

How the data were processed

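Polyadenylated RNA was measured in 7 libraries, 4 DSS and 3 water. The authors counted primary alignments over exons of GENCODE mouse release 15 with featureCounts 1.5.3 and a minimum overlap fraction of 0.8, per the file headers, and deposited these raw counts. The submitters' processing notes list the build mm10 and the tools featureCounts 1.5.2, STAR 2.5.3a and DESeq2. Symbols came from GENCODE release 21, matched for 52403 of 52550 identifiers. Per the file names DSS 2 was merged. A number in the other file names, 8 for DSS 1 and DSS 3 and 6 for the rest, was taken to be the lane. The sample labels used here do not give its meaning.

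In edgeR 4.0.16 (R 4.3.3), filterByExpr left 17449 genes, libraries were TMM-scaled, and DSS was set against water by the quasi-likelihood test, adjusted by Benjamini-Hochberg over all genes at 0.05. DESeq2 1.42.0, which gave an adjusted p to 13223 genes, and limma 3.58.1 were alternatives. Log2 CPM used a prior count of 2. The steps were tested on simulated data. The members, the 14 other lists and the tests were chosen with earlier results of these data known. Named genes are the 10, the up to 4 smallest edgeR p-values of a list (8 in the signature list), the 5 patterns nearest to Lgr5 and to Ascl2, and overlapping genes. Clca4b, Clca4c-ps and the collagen genes were named after their values were seen. Replicates were numbered in accession order. The labels do not say whether the libraries are from separate animals, and the p-values cover only the spread seen between them. A number in the titles is shared by water 3, DSS 2 and DSS 3, with no meaning given, and DSS 2 and DSS 3 also share their RNA isolation day.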

Additional observations from a re-analysis of the deposited data

Results flagged for a closer look

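Within the 4 DSS libraries, DSS 1 stood far from the other 3 for 2 of the 10 genes, measured as its distance from the closest other library divided by the range of the group. The ratio passed Dixon's limit, which chance passes in about 1 in 20 groups. It was computed for the 10 genes alone, so how often DSS 1 passes that limit among all genes is not known. Nothing particular to these genes is read from it. For Ascl2 DSS 1 was the lowest, at 22.0 CPM beside 26.3 to 26.7 CPM, with a ratio of 0.909. For Fam84a DSS 1 was the highest, at 31.5 CPM beside 26.5 to 27.3 CPM, with a ratio of 0.852. In both genes the value of DSS 1 was the DSS value nearest to the water libraries.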

How the results depend on the processing

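Over all genes edgeR called 0 higher and 0 lower, with 1459 and 1283 at an unadjusted p under 0.05. With library totals only it called 2107 and 28, and 7 higher among the 31 other signature genes, as that scaling moved the median of all genes to 0.23. With no low-count filter it called 240 and 201, and 1 and 1 of the 31. DESeq2 called 346 and 296, and 4 higher of the 31. In lane 6 libraries alone, where DSS 4 is assumed to vary like water, there were 3 and 6. Leaving out 1 library gave 0 to 168 higher and 0 to 135 lower, the most without DSS 1, and without DSS 4 there were 9 higher. Genes whose groups do not overlap, an alternative chosen after seeing the data, numbered 2 to 3 above and 2 to 5 below among the 10, and 4 to 7 above and 1 to 4 below among the 31, while the share of all genes moved between 7.40% and 13.1% above and between 7.51% and 12.8% below. Over 17 alternatives, Lgr5, Fstl1, Clca4a and Fam84a stayed below 0 and Ascl2, Mex3a and Cdk6 above 0, while Olfm4 changed sign in 3, Prom1 in 1 and Smoc2 in 1 (-0.0099 in lane 6 libraries, where Prom1 was at -0.18). With library totals Ascl2 was at 0.61, Mex3a at 0.62, Cdk6 at 0.45, Smoc2 at 0.31 and Fam84a at -0.23. There edgeR called the first 4 of these higher, beside 2107 of all 17449 genes. With no filter it called Lgr5, Fstl1, Clca4a and Fam84a lower, beside 201 of 35081 genes. The last 3 of these were also called lower without DSS 1, beside 135 of 17319 genes. Nothing is read from these counts, as the genes were named with the contrast known. Of the 45 pairs, 28 had r above 0 with library totals and 31 without DSS 1. In 10-week mice alone, with water 3 the lone control and assumed to vary like DSS, Ascl2 was at 0.69 and Clca4a at -1.43. The causes were not tested. The replicate numbers follow accession order and pair nothing. The title number shared by water 3, DSS 2 and DSS 3 was tried as a replicate block after seeing the data. It rests on those 3 libraries alone, called 2 genes higher and 3 lower with 0 of the 10 among them, and put Ascl2 at 0.69, Fstl1 at -1.56, Clca4a at -1.61 and Prom1 at -0.03.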
